A study of Mus musculus with 20 samples.

Results

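The regions described here are stretches of mouse liver chromatin at which acetylation of histone H3 at lysine 27 (H3K27ac) was called in both livers lacking Cpt2 and in none of the 6 other livers profiled. They were chosen from the H3K27ac consensus intervals by 1 rule: an interval had to be overlapped by at least 1 base by a peak of each Cpt2 KO library and by no peak of the wild-type, Ppara KO and double-knockout libraries. The rule kept 1202 of 65776 intervals (1.83%), which are called the Cpt2 KO-only intervals below. Since H3K27ac calls chose them, their H3K27ac values are given as a description, without a test.

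Chromatin immunoprecipitation and sequencing was done on flash-frozen livers of 9-week-old male C57BL/6 mice, all fasted for 24 hours. Mice were of wild type (WT), had lost Cpt2 in the liver alone (Cpt2 L-/-, here Cpt2 KO), had lost Ppara throughout the body (Ppara -/-, here Ppara KO) or had lost both (Cpt2 L-/- ; Ppara -/-, here DKO). H3K27ac and H3K4me1 were profiled in 2 livers of each genotype, and H3K9ac in 1 WT and 1 Cpt2 KO liver. The transgene behind the liver-specific deletion is not given in the sources used here, and with no fed group every value describes the fasted liver. Whole tissue was used, so a change in the makeup of the liver and a change within hepatocytes cannot be told apart.

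Cpt2 is a carnitine palmitoyltransferase of the inner mitochondrial membrane, and without it long-chain fatty acids cannot enter mitochondrial beta-oxidation. Ppara is a nuclear receptor that binds fatty acids, pairs with the retinoid X receptor and, during fasting, switches on genes for fatty acid uptake, oxidation and ketone body synthesis. H3K27ac and H3K9ac mark active promoters and, for H3K27ac, active enhancers, whereas H3K4me1 marks enhancers whether active or poised.

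Few of these intervals reached a promoter, and the letters of 5 promoters that did are shown because each lay inside a Cpt2 KO-only interval or held a searched motif there. They are RefSeq sequences (GRCm38.p6) of up to 250 bases before a gene start, cut before any annotated gene body, printed 5′ to 3′ on the strand of the gene, with motif matches in capitals. Ucp3, which encodes a mitochondrial carrier of the uncoupling protein family, has its stretch at chr7:100472741-100472990 on the plus strand. The capitals are AGGTCA half-sites, the hexamer that nuclear receptors such as Ppara recognise. They begin 149 and 44 bases before the start and so are not adjacent.
Ucp3: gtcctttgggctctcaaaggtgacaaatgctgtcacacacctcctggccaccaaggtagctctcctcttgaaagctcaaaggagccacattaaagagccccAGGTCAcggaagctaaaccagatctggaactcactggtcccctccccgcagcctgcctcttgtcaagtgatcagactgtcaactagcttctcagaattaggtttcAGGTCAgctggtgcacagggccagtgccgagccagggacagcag
Slc35f2, a solute carrier, has its stretch at chr9:53771285-53771432 on the plus strand, with 1 AGGTCA half-site.
Slc35f2: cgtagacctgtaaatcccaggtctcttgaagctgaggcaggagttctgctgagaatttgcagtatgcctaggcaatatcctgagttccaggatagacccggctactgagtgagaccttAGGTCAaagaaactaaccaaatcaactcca
Prrg4, a transmembrane protein with a Gla domain, has its stretch at chr2:104849873-104850100 on the minus strand, with a match to the antioxidant response element (TGACNNNGC).
Prrg4: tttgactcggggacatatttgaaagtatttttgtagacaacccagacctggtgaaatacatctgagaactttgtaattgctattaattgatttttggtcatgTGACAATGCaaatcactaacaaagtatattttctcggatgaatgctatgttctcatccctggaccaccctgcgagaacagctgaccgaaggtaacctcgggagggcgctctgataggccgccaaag
The predicted gene Gm32838, next to Sspn, has its stretch at chr6:145968647-145968896 on the plus strand, with 1 AGGTCA half-site.
Gm32838: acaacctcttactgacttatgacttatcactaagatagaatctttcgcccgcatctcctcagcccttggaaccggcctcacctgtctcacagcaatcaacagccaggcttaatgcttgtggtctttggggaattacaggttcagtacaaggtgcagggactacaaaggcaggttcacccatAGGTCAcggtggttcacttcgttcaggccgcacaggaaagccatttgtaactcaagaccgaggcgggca
The predicted gene Gm51474, next to the cytochrome P450 gene Cyp2b13, has its stretch at chr7:26055157-26055406 on the plus strand, with a FOXA match (TGTTTAC, read on the other strand) followed by a CEBP match (TTGCNNAA, also on the other strand).
Gm51474: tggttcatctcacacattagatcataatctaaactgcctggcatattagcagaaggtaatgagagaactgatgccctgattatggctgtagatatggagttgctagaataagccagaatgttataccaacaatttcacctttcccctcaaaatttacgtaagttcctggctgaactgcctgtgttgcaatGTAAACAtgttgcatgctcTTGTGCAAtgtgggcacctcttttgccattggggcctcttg

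The H3K27ac peak over the Ucp3 promoter had a fold enrichment of 5.85 in Cpt2 KO replicate 1 and 4.71 in replicate 2. A fold enrichment is the authors' ratio of the ChIP pileup at a peak's summit to the local background. The other 4 peaks were higher: 9.19 and 8.24 at Slc35f2, 10.7 and 9.86 at Prrg4, 12.4 and 15.7 at Gm32838, and 10.2 and 11.5 at Gm51474. In all, 32 of the 1202 intervals (2.66%) overlapped 35 promoter windows of 32 genes, 14 of them protein-coding. Over all H3K27ac intervals, 15.2% overlapped a promoter window. Among intervals called in both livers of another genotype and in no other library, the share was 2.81% for WT, 1.03% for Ppara KO and 6.87% for DKO. The AGGTCA half-site, on either strand of the 250 bases before the start, was in 9 of these 35 windows (25.7%) and in 14.0% of all 32851 windows. In 6 of the windows the half-site lay within the acetylated interval itself. The full direct repeat bound by PPAR and its partner was in 0 of the 35 windows and in 0.0335% of all windows. Matches to CEBP (11.4% beside 9.56%), FOXA (5.71% beside 3.17%), the antioxidant response element (14.3% beside 10.2%) and AP-1 (TGANTCA, 8.57% beside 6.75%) were also close to the shares over all windows, and 35 windows are too few to separate such shares. A match says only that the letters are there.

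The acetylation at these intervals was moderate. The median fold was 6.71 in Cpt2 KO replicate 1 (range 3.09 to 28.0) and 6.35 in replicate 2 (2.90 to 23.4). About 29.9% of the called intervals of replicate 1 and 29.5% of those of replicate 2 had a lower fold than this. Summits held a median of 33 tags in replicate 1 and 30 in replicate 2, as recovered from the deposited fold and p-value. The log2 ratio of the replicates had a median of 0.11 and an SD of 0.41, beside 0.11 and 0.38 over all 30597 intervals called in both libraries, a nearly equal spread. Signal where no peak was listed is not measured by these files, and the weakest fold of any listed H3K27ac peak was between 2.26 and 2.50, depending on the library.

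**Figure D1:**
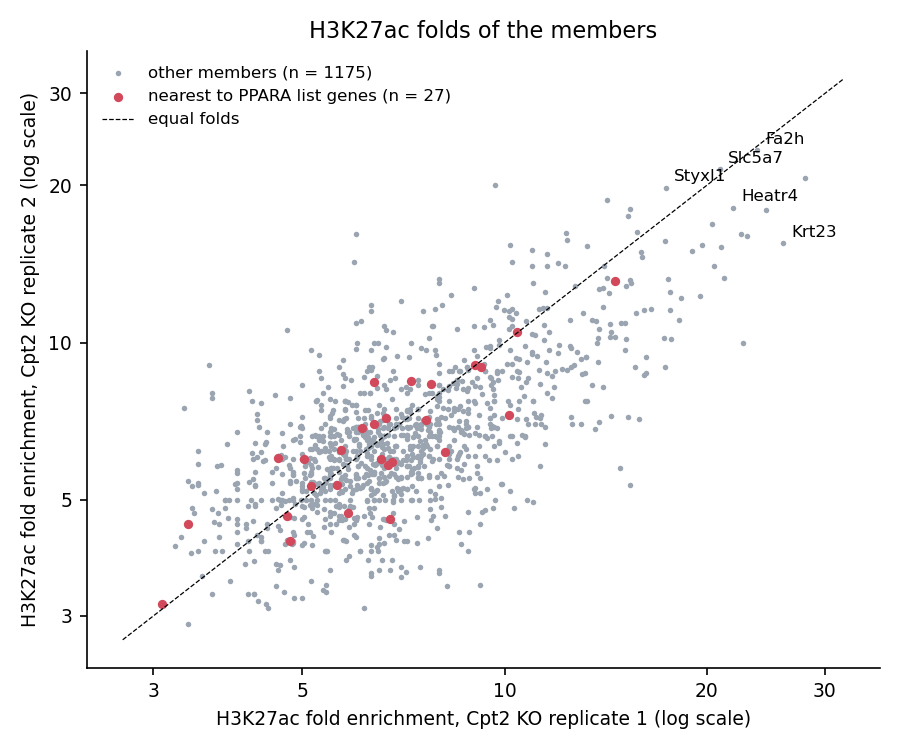
H3K27ac fold enrichment (log scales) of the 1202 Cpt2 KO-only intervals in Cpt2 KO replicate 1 against replicate 2, with the 27 intervals nearest to PPARA target genes in red. Points scatter along the line of equal folds, and Fa2h, an interval whose nearest gene is Slc5a7, Heatr4, Styxl1 and Krt23 are among the 12 strongest.

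At the edge of the rule, intervals nearest to Thop1, Twf2 and Gm45521 were the weakest that passed. The Thop1 interval had folds of 3.38 and 2.90, the Twf2 interval 3.50 and 5.40, and the Gm45521 interval 3.50 and 6.19. Just outside stood intervals nearest to Cdc42ep1, Fnbp1 and Asb13, each lost through 1 weak peak. That peak had a fold of 2.90 in WT replicate 1 at Cdc42ep1, 3.50 in DKO replicate 1 at Fnbp1 and 3.50 in Ppara KO replicate 2 at Asb13.

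The rule also sets a limit on what the calls in the DKO can show. In total, 6395 intervals were called in both Cpt2 KO livers and in neither WT liver. Of these, 4102 (64.1%) were called in both DKO livers as well, 935 (14.6%) in 1 of them and 1358 (21.2%) in neither. The Cpt2 KO-only intervals are the 1202 of those 1358 that also had no call in either Ppara KO liver. Most gains of acetylation calls over WT were therefore also called in the livers lacking Ppara as well as Cpt2, and the intervals described here are the minority that were not. Another 1068 intervals missed the rule through a call in exactly 1 other library, most often a DKO library (254 in replicate 1 and 351 in replicate 2) and least often a Ppara KO library (67 and 66).

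**Figure D2:**
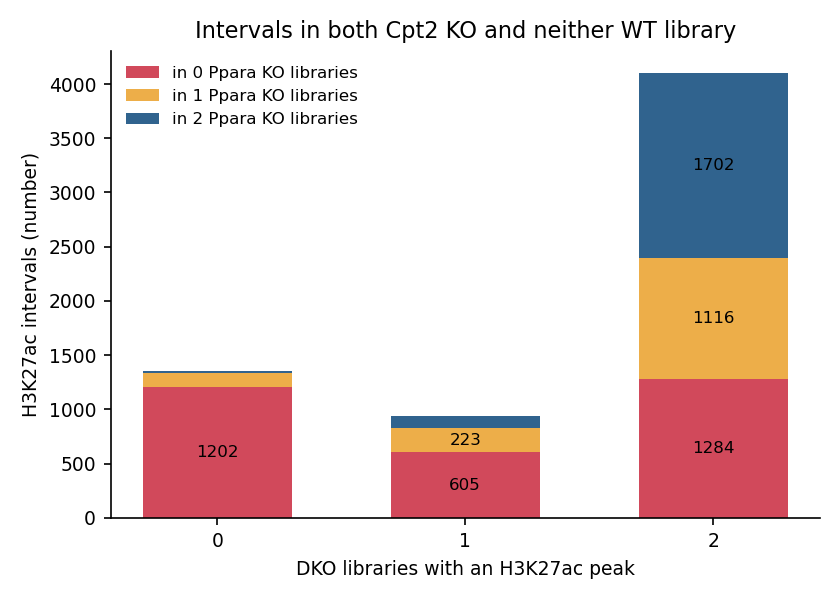
Number of H3K27ac intervals called in both Cpt2 KO libraries and neither WT library, by the number of DKO libraries (bars) and of Ppara KO libraries (colours) with a peak there. The red part of the left bar is the 1202 Cpt2 KO-only intervals, and the right bar, called in both DKO libraries, is the tallest with 4102.

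The same kind of rule for the other genotypes gave 2167 intervals for WT (3.29%), 290 for Ppara KO (0.441%) and 1485 for DKO (2.26%). The 1202 intervals thus lay between the counts that the same rule gave for other genotypes.

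The strongest interval lay inside Fa2h, which encodes fatty acid 2-hydroxylase, at chr8:111366627-111367566. Its H3K27ac folds were 23.8 and 23.4, and H3K4me1 was called there at 17.0 and 9.60 in the same 2 Cpt2 KO livers and in no other library. H3K9ac was called there in the Cpt2 KO liver and not in the WT liver. H3K27ac and H3K4me1 thus gave the same pattern of calls at Fa2h, and H3K9ac was not profiled in Ppara KO or DKO livers.

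Next came a pair of intervals on chromosome 17, whose nearest protein-coding gene, the choline transporter gene Slc5a7, was 386419 and 379375 bases away. The first, chr17:54684729-54686185, had folds of 20.9 and 21.5, with H3K4me1 at 15.7 and 7.17 in the Cpt2 KO livers only. The second, chr17:54677959-54678867, had folds of 28.0 and 20.7, with H3K4me1 at 14.4 in Cpt2 KO replicate 1 alone.

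The interval inside Heatr4, chr12:83981223-83982725, with folds of 21.9 and 18.1, lies beside the acyl-CoA thioesterase genes Acot1 and Acot2. H3K4me1 was called at Heatr4 in all 8 livers, at 17.7 and 9.80 in the Cpt2 KO pair compared with 5.75 and 7.34 in the WT pair, 8.50 and 5.33 in the DKO pair and 5.40 and 5.86 in the Ppara KO pair. Both Cpt2 KO values were the highest. Likewise, the interval inside Styxl1, a phosphatase-like protein, had H3K27ac folds of 17.4 and 19.8 and H3K4me1 in all 8 livers.

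Other intervals among the 12 strongest were nearest to genes of varied function. They include the ubiquitin-conjugating enzyme gene Ube2d2a (24.5 and 18), the secreted metalloprotease gene Adamts12 (22.5 and 16.2) and the GTPase gene Rhou (23 and 16). The centrosomal protein gene Cdk5rap2 (15.8 and 16.3), the cell adhesion gene Cadm1 (17.3 and 15.7), the keratin gene Krt23 (26 and 15.5) and Cyyr1 (20.4 and 16.8) complete the 12. The intervals nearest to Cdk5rap2, Cadm1, Cyyr1 and Rhou lay 393143, 163033, 29904 and 19472 bases from these genes. Only 4 of the 12 (nearest to Fa2h, Slc5a7, Ube2d2a and Adamts12) had H3K4me1 called in both Cpt2 KO livers and in no other.

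Genes of fatty acid uptake and oxidation held a small part of the set, but a larger share of their own intervals belonged to it than over all intervals. Of 338 intervals nearest to 46 PPARA target genes, 27 were Cpt2 KO-only (7.99%), against 1.83% of all intervals. They fell to 15 genes. The list's other sets were smaller: 14 of the 338 intervals were WT-only, 2 DKO-only and 0 Ppara KO-only. Over all intervals these shares were 3.29%, 2.26% and 0.441%. The WT-only share of the list was thus also above that of all intervals, and the DKO-only and Ppara KO-only shares were below. The list was chosen with results of these data known, so the share describes these genes and is no test. When Cpt2 KO replicate 1 was left out of the rule, 52 of the 338 (15.4%) qualified, and without replicate 2, 40 (11.8%), while the shares of all intervals rose to 3.76% and 4.19%.

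Cd36, the fatty acid translocase that brings long-chain fatty acids into the cell, had 5 Cpt2 KO-only intervals of the 14 nearest to it. The strongest, chr5:17848071-17849843 inside the gene, had folds of 14.6 and 13.1, and no H3K4me1 peak overlapped it in any library. The other 4 ranged from 6.54 to 10.1 in replicate 1 and from 5.83 to 7.29 in replicate 2. Around them, other intervals carried acetylation in more livers: chr5:17923288-17925549 was called at 14.7 and 13.8 in the Cpt2 KO pair compared with 6.18 and 4.18 in the WT pair, 7 and 8 in the DKO pair and 5.91 and 5.17 in the Ppara KO pair. There both Cpt2 KO folds were above all 6 others. At chr5:17834941-17836934 they were not: the folds were 5.33 and 6.88 in the Cpt2 KO pair, 11.4 and 7 in the DKO pair and 6.94 and 5.90 in the Ppara KO pair, with no call in the WT pair. A further interval, chr5:17880009-17882222, missed the rule through a single call at 9.05 in WT replicate 1, with 19.2 and 23.5 in Cpt2 KO.

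Among enzymes of beta-oxidation, Hadhb, the thiolase subunit of the mitochondrial trifunctional protein, had 2 such intervals. That at chr5:30171712-30172765 had folds of 10.4 and 10.5, H3K4me1 at 13.5 and 5.40 in the Cpt2 KO livers only, and H3K9ac in the Cpt2 KO liver only. Ehhadh, the peroxisomal bifunctional enzyme, had 1 with folds of 7.78 and 8.33. For ketone body metabolism, 1 of the 12 intervals assigned to Bdh1, the 3-hydroxybutyrate dehydrogenase gene, was Cpt2 KO-only. It lay 20438 bases from the gene and had folds of 5.71 and 6.24. H3K4me1 was called there in every library except WT replicate 2.

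The omega-hydroxylase genes Cyp4a10 and Cyp4a14 had 3 and 2 intervals, the strongest at 9.04 and 9.07 beside Cyp4a10. The thioesterase genes Acot1 and Acot2 had 2 each, with folds from 4.60 to 8.43. Both families hold near-identical copies, so reads at these loci may have been split between them. Pdk4, a kinase that inhibits pyruvate dehydrogenase, had 1 interval at 8.17 and 6.16, with H3K4me1 at 8.99 and 8.82 in Cpt2 KO. Fabp1, the liver fatty acid-binding protein gene, had 3 of its 11 intervals in the set, with folds from 4.60 to 6.02.

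At Ucp3 the data extend beyond the promoter printed above. An interval just inside the gene, chr7:100474078-100475493, was called at 15.9 and 16.8 in the Cpt2 KO pair, at 5.14 and 3.88 in the WT pair and in no Ppara KO or DKO liver. The Cpt2 KO folds were thus higher than those of WT at the neighbour. At the promoter interval H3K4me1 was called at 6.89 and 6.63 in the WT pair, at 10.3 in Cpt2 KO replicate 2 and in no other library.

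H3K4me1 at the 27 intervals of this list was called in 16 and 13 of them in the Cpt2 KO livers, beside 8 and 6 in the WT pair, 6 and 7 in the DKO pair and 5 and 4 in the Ppara KO pair. Over all H3K27ac intervals these Cpt2 KO libraries had a peak at 49.0% and 50.9% and the 6 others at 47.3% to 52.6%, and over the 1202 intervals the Cpt2 KO libraries had one at 72.5% and 46.8%. In 4 of the 27 it was called in both Cpt2 KO livers and no other library, a pattern seen at 9.15% of the Cpt2 KO-only intervals and 0.409% of all intervals.

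Genes of lipid droplets and lipid uptake overlapped with this list. Of 116 intervals nearest to them 11 were Cpt2 KO-only (9.48%), and 9 of the 11 lay nearest to genes on both lists (Cd36, Cidec and Fabp1). Cidec, a lipid droplet protein that promotes droplet fusion, had 1 at 9.24 and 8.99. The remaining 2 were nearest to Vldlr, the receptor for very-low-density lipoprotein: chr19:27178178-27178645, with folds of 12 and 9.89 and H3K4me1 at 9.40 and 9.00 in the Cpt2 KO pair and 3.67 and 6.40 in the WT pair, and a second with 11 and 7.33.

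Genes of the integrated stress response had 5 of 123 intervals (4.07%), 2 of which are the Vldlr intervals already given. Psat1, an enzyme of serine synthesis, had only 2 intervals in all, and both were Cpt2 KO-only, with folds of 9.40 and 9.80 at chr19:15904965-15905506 and 10.4 and 6.43 at chr19:15903847-15904547. Atf3, a stress-induced transcription factor, had 1 interval 47477 bases away, at 10.2 and 11.2, with H3K4me1 at 9.40 and 5.99 in the Cpt2 KO livers only.

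Of the other gene lists, 1 was above the share over all intervals and the rest were below it. Extracellular matrix and cytoskeleton genes had 4 of 128 intervals (3.12%), among them one near Anxa2 with folds of 10.1 and 12.3 and H3K4me1 at 13.7 and 10.8 in the Cpt2 KO livers only, and one near Tpm1 with 6.20 and 7.42. Bile acid and xenobiotic genes had 4 of 229 (1.75%), including the Cyp2b13 interval given above. Lipogenesis and sterol genes had 4 of 245 (1.63%), with an interval inside Acacb at 6.28 and 8.99. Another, 65639 bases from Sqle, was at 7.25 and 6.25. Cell cycle genes had 3 of 188 (1.60%), with an interval 271577 bases from Myc at 7.05 and 6.86. Another, 68236 bases from Cdk1, was at 8.26 and 5.80. Targets of the antioxidant factor Nfe2l2 had 2 of 154 (1.30%), which were weak: Gclc at 3.44 and 4.71 and Cbr3 at 3.42 and 3.96. Acute phase genes had 2 of 219 (0.913%). That 24512 bases from Ccl2 was at 9.04 and 7.67, and that 35815 bases from Steap4 at 7.43 and 6.35. Urea and amino acid genes had 2 of 223 (0.897%), both nearest to Cps1 and 41363 and 37165 bases away. Gluconeogenesis and fasting genes had 1 of 289 (0.346%), nearest to the kinase gene Sik1 (5.53 and 7.33), and circadian clock genes 0 of 156.

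Markers of other liver cells stood beside these lists. Stellate cell markers had 4 of 48 intervals (8.33%), 3 nearest to Dcn and 1 to Reln, with the strongest Dcn interval, 97705 bases away, at 6.33 and 6.08 and the Reln interval at 8.50 and 5.75. None of these 4 had H3K4me1 in any library, and the other 8 stellate markers, among them Lrat, Des and Col1a1, had none of the intervals. Kupffer cell or macrophage markers had 0 of 48, lymphocyte markers 0 of 13 and neutrophil markers 0 of 1. Endothelial markers had 1 of 110 (Lyve1, 6.83 and 5.87) and cholangiocyte markers 1 of 21 (32038 bases from Spp1, 7.94 and 7.14). Hepatocyte markers had 2 of 121, both nearest to Cps1 (6.88 and 6.91 for the stronger, 41363 bases away). Of the 121 hepatocyte marker intervals, 31 were called in all 8 libraries, beside 18281 of 65776 over all intervals. The same held for 31 of the 110 endothelial and 2 of the 48 stellate marker intervals. The part of other cell types in the set was not tested.

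**Figure D3:**
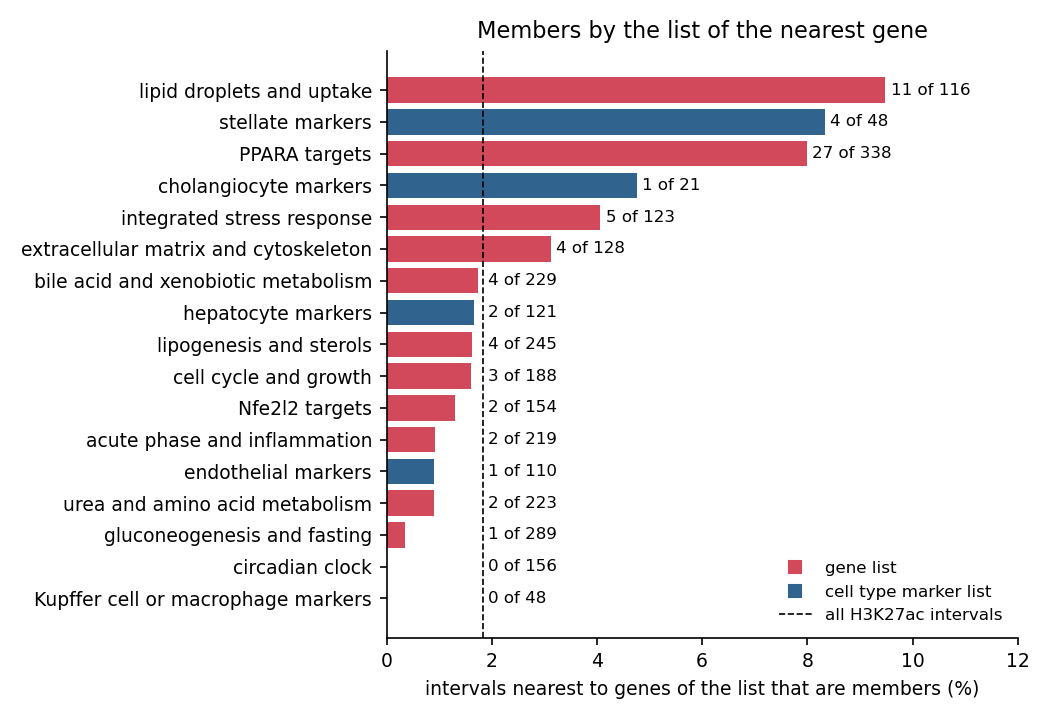
Share of the H3K27ac intervals nearest to the genes of each list that were Cpt2 KO-only, with the count beside each bar and the 1.83% over all intervals as a dashed line (lists with fewer than 20 intervals are not drawn). The lipid droplet list, the PPARA targets and the stellate markers have the longest bars, and the last rests on 4 intervals.

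Most genes had a single interval. The 1202 intervals were nearest to 970 genes, of which 796 had 1 and 47 had 3 or more. Besides Cd36, genes with many were Ablim1 (5 of 30), an actin-binding protein, Rapgef5 (5 of 20), a guanine nucleotide exchange factor, Zfhx3 (4 of 39), a homeobox transcription factor, and Car2 (4 of 6), which encodes carbonic anhydrase 2. The 4 Car2 intervals lay 56523 to 71037 bases from the gene and had folds from 5.75 to 13.1 in replicate 1 and from 5.50 to 8.70 in replicate 2. Fabp3, a fatty acid-binding protein gene outside the lists, had 3 of its 4 intervals in the set, the strongest at 12.7 and 12.8. By chromosome, the share of intervals that were Cpt2 KO-only ranged from 1.26% to 2.42%, apart from chromosome Y with 0 of 8.

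The intervals were short and lay far from gene starts. Their median width was 485.5 bases, beside 619 over all intervals and 1981 over the 18281 called in all 8 libraries. The median distance to a RefSeq start was 20741 bases, against 11638 over all intervals and 4584 over those called in all 8. Either end of a protein-coding gene was within 1000 bases for 5.82% of them (17.5% of all intervals), and 55.7% (66.1%) lay inside a protein-coding gene body. A further 9.48% were over 100000 bases from any protein-coding gene, beside 4.27% of all intervals. Short intervals were common to the sets chosen by the same kind of rule, with medians of 409 bases for DKO-only, 405.5 for Ppara KO-only and 513 for WT-only intervals. The median distance to a start was 16817 bases for the DKO-only, 17751 for the Ppara KO-only and 10884 for the WT-only intervals.

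**Figure D4:**
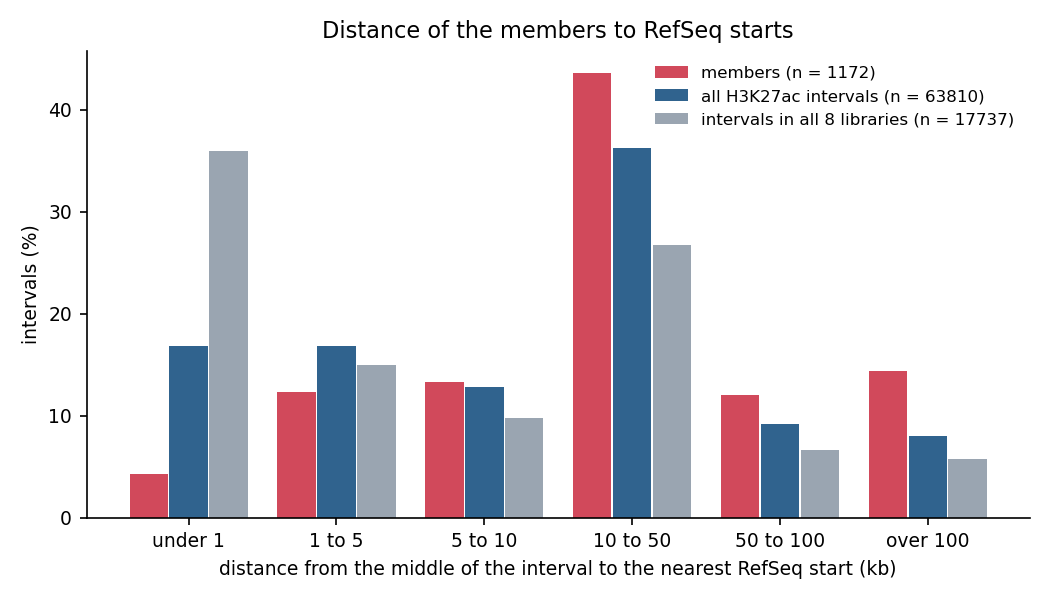
Share of intervals by distance from the interval's middle to the nearest RefSeq start, in kb, for the Cpt2 KO-only intervals, all H3K27ac intervals and those called in all 8 libraries. Cpt2 KO-only intervals fill the bin under 1 kb least (4.27%) and the bin of 10 to 50 kb most (43.6%).

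Like the DKO-only intervals, they stood apart from acetylation called in every library. Of them 82 (6.82%) lay within 1000 bases of an interval called in all 8 libraries, as did 6.46% of the DKO-only ones. The share was 43.0% for the WT-only and 46.6% for the Ppara KO-only intervals, and was not computed over all intervals. The length of the smallest H3K27ac peak, a measure of how peaks were called, divided the genotypes likewise. It was 217 to 223 bases in Cpt2 KO and DKO and 198 to 210 in WT and Ppara KO. Its part was not tested. For the Cpt2 KO-only intervals the median gap to an interval called in all 8 was 23966 bases. No peak of another genotype lay within 1000 bases of 865 (72.0%) of them. Another member of the set lay within 50000 bases of 28.3%, a share not computed over all intervals. Of the 18281 intervals called in all 8 libraries, 245 lay within 5000 bases of a Cpt2 KO-only interval. Their median log2 difference between the Cpt2 KO folds and those of the 6 other livers was 0.19, against −0.01 over all 18281. Of the 245, 72.2% were higher in Cpt2 KO, against 49.2% over all 18281. These folds come from the libraries the rule used and are a description.

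H3K4me1 was measured in other libraries and did not choose the set, although the peak names show the same animal numbers for both marks, so these are other assays of the same livers. In Cpt2 KO it was called at 72.5% of the 1202 intervals in replicate 1 and 46.8% in replicate 2. The WT libraries had it at 31.4% and 28.3%, the DKO libraries at 28.9% and 31.3%, and the Ppara KO libraries at 17.7% and 26.3%. Both Cpt2 KO livers were above all 6 others, and over all H3K27ac intervals the 8 libraries lay between 47.3% and 52.6%.

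The Cpt2 KO replicates themselves differed by more than any other pair of replicates did. The H3K4me1 libraries fell into sets by the length of their smallest peak, a measure of how the peaks were called: 196 to 200 bases in Cpt2 KO replicate 2, the WT pair and Ppara KO replicate 1, and 210 to 221 bases in the other 4. Within the first set, Cpt2 KO replicate 2 (46.8%) stood above WT (31.4% and 28.3%) and Ppara KO replicate 1 (17.7%). Within the second, Cpt2 KO replicate 1 (72.5%) stood above Ppara KO replicate 2 (26.3%) and DKO (28.9% and 31.3%). The Cpt2 KO pair and the Ppara KO pair were each split between the sets. WT was only in the first and DKO only in the second. Replicate and smallest peak therefore cannot be told apart within Cpt2 KO, and the part of peak calling was not tested. Among the H3K27ac libraries the smallest peak was 220 and 221 bases in Cpt2 KO, 217 and 223 in DKO, 198 and 206 in WT and 205 and 210 in Ppara KO, and its part in the choice of intervals was not tested.

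**Figure D5:**
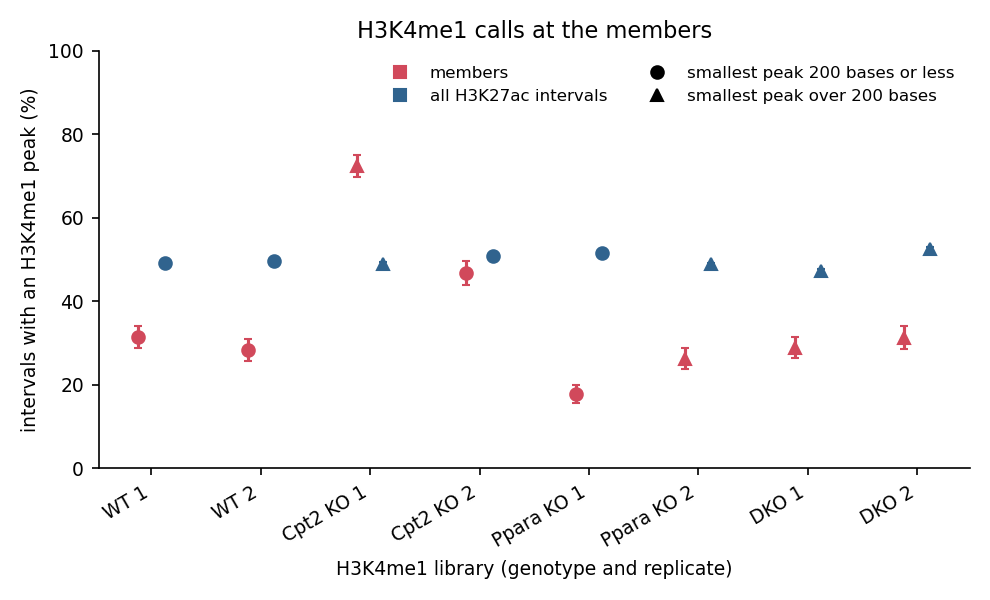
Percentage of the Cpt2 KO-only intervals (red) and of all H3K27ac intervals (blue) with an H3K4me1 peak in each library, with 95% exact binomial intervals over intervals, which cover counting error only; circles and triangles mark the smallest peak of the library. Red points are highest in both Cpt2 KO libraries (72.5% and 46.8%), while blue points stay between 47.3% and 52.6%.

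In both Cpt2 KO livers H3K4me1 was called at 539 of the intervals (44.8%, against 36.7% of all intervals). At 110 (9.15%) it was called in both Cpt2 KO livers and none of the 6 others, a pattern found at 0.409% of all intervals. WT-only H3K27ac intervals had the matching WT pattern in 3.88% of cases (0.721% of all intervals), DKO-only intervals the DKO pattern in 3.43% (0.632%) and Ppara KO-only intervals theirs in 0.690% (0.0699%). Without Cpt2 KO replicate 2, where the pattern asks for replicate 1 alone, 277 of the intervals had it (1.72% of all intervals). Without Cpt2 KO replicate 1, where it asks for replicate 2 alone, 119 had it (1.37% of all intervals). Leaving out any 1 WT, Ppara KO or DKO library of H3K4me1 gave 110 to 136.

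At the other end, 278 intervals (23.1%) had no H3K4me1 peak in any library, beside 24.9% of all intervals, and 99 (8.24%) had one in all 8, beside 26%. The 110 intervals with H3K4me1 in the Cpt2 KO livers alone had higher H3K27ac folds (medians 7.78 and 7.57) and were wider (714 bases) than the 278 without it (6.33, 6.08 and 385 bases). By H3K27ac fold, taking the lower of the replicates, the pattern was seen in 5.65% of the 301 lowest intervals and 15.6% of the 301 highest. Their median widths were 433 and 827 bases, and the part of width in these shares was not tested.

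By rank of H3K27ac fold, those with H3K4me1 in the Cpt2 KO livers alone were led by Fa2h, Slc5a7, Ube2d2a and Adamts12, given above. They were followed by an interval whose nearest gene, Tmem167, was 256986 bases away (16 and 14.6). Next came intervals inside Phb, the mitochondrial scaffold protein prohibitin (14.2 and 13.3), nearest to the cadherin gene Cdh26 (21.2 and 13.3) and inside Ralyl (15.4 and 13.2). At Phb, H3K4me1 was called at 11.2 and 6.43, and at Cdh26 at 12.5 and 12.6, with no call in the 6 other libraries.

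The size of the H3K4me1 signal could be tested only where all 8 libraries had a peak. Of 19526 such H3K4me1 intervals, 153 overlapped 164 of the Cpt2 KO-only intervals, those already marked in every genotype. In limma none of the 153 passed an adjusted p of 0.05 (Benjamini-Hochberg) in Cpt2 KO against WT, against DKO or against the mean of the 3 other genotypes, and 0% of all 19526 intervals did. At an unadjusted p under 0.05, there were 22 of the 153 against WT (7.69% of all intervals), 27 against DKO (7.76%) and 32 against the mean of the others (5.37%). All of these were higher in Cpt2 KO, as were 3.79%, 3.83% and 2.84% of all intervals in the 3 comparisons. The median log2 difference over the 153 was 0.20, 0.24 and 0.26 in the 3 comparisons, beside −0.01, 0.00 and 0.00 over all intervals.

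Nceh1, which encodes a neutral cholesterol ester hydrolase, had the lowest adjusted p against DKO. The H3K4me1 folds there were 13.3 and 9.19 for the Cpt2 KO pair, 5.25 and 6.96 for the WT pair, 4.20 and 4.74 for the DKO pair and 5.86 and 4.99 for the Ppara KO pair. Both Cpt2 KO values lay above the 6 others, and the log2 difference from DKO was 1.30 (SE 0.29, adjusted p = 0.208 by limma). At Styxl1 they were 15.3 and 12.3 for the Cpt2 KO pair, 7.67 and 7.50 for the WT pair, 6.90 and 7.26 for the DKO pair and 5 and 5.71 for the Ppara KO pair, with a log2 difference from the mean of the others of 1.05 (SE 0.22, adjusted p = 0.304 by limma). Ugcg, the glucosylceramide synthase gene 39871 bases from its interval, had 14.2 and 11.3 for the Cpt2 KO pair against 5.79 and 5.89 for the WT pair (log2 difference 1.11, SE 0.27, adjusted p = 0.552 by limma).

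H3K9ac, with 1 library a genotype and no test, was rare at these intervals. It was called in the Cpt2 KO liver and not the WT liver at 51 (4.24%, beside 5.14% of all intervals), in WT and not Cpt2 KO at 9 (0.749%, beside 5.07%), in both at 35 (2.91%, beside 29.4%) and in neither at 1107. The share with a call in Cpt2 KO only was thus near that of all intervals, whereas calls in WT only and in both were fewer. By H3K27ac fold, the intervals with H3K9ac in the Cpt2 KO liver alone were led by Fa2h, Phb and Cdh26. Mtor, the kinase of the growth-regulating complexes, came next with 13.3 and 15.3, followed by an interval near Rhou (17.5 and 13.2), Sspn (12.4 and 15.7), Kirrel (12.5 and 11) and Nceh1 (15.1 and 10.9). The 51 lay nearer to gene starts (median 10811 bases) than the 1107 without H3K9ac (22150 bases).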

How the data were processed

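H3K27ac and H3K4me1 ChIP-seq of 16 liver libraries and H3K9ac of 2 were used; samples were grouped by their titles, and the pooled inputs were not analysed on their own. The submitters' processing notes name BWA, MACS2 2.1.0 and mm10. The authors called peaks per library and deposited for each peak a fold (a linear ratio), a −log10 p and a −log10 q; the weakest −log10 p listed was 7.02. Consensus intervals and H3K9ac intervals, with start and end positions, were deposited by the authors per mark. The peak names of 1 H3K27ac library (Ppara KO replicate 2) carry another build word, but its intervals stand under an mm10 track in the series file. Read totals are not given, so depth is unknown; the 8 H3K27ac libraries list 44454 to 48929 peaks.

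An overlap of 1 base made a call, and an interval took the highest fold of its peaks. Nearest genes are protein-coding bodies in the RefSeq gene table, from the interval's middle. H3K4me1 log2 folds, centred on each library's median, were fitted in limma 3.58.1 (R 4.3.3) with 4 genotype means, trended variance and Benjamini-Hochberg adjustment over 19526 intervals. The test was tried on simulated data. Animals are separate by their numbers in the peak names.

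The regions, lists and tests were chosen with earlier results of these data known. Genes named by rule were the 12 intervals with the highest lower fold, up to 2 per list, up to 8 with H3K4me1 or H3K9ac in Cpt2 KO only, the 6 genes with the most intervals and those at the edge of the rule. The further PPARA list genes, Psat1, Fabp3, the limma examples and the printed promoters were named after their values were seen. Genome sequence outside the promoter windows was not used here, and 30 intervals lay on chromosomes without windows. Results for a few genes that the rule or the lists name are not reported here.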

Additional observations from a re-analysis of the deposited data

How the results depend on the processing

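The number of Cpt2 KO-only intervals stayed within 1.5 times of 1202 when peaks needed a −log10 q of 10 (1118, or 903 when asked of the Cpt2 KO libraries alone), with an overlap of 50% of the shorter (1202), with no other peak within 1000 bases (865) and with the intervals of the series file (1202). Leaving out 1 library gave 1268 to 2753; the counts above 1.5 times were those without Cpt2 KO replicate 1 (2472) and replicate 2 (2753), where the rule asks less. The share with H3K4me1 in both Cpt2 KO livers was 38.0% with H3K4me1 peaks of a −log10 q of 10 and 41.5% with the 50% overlap. Within 5000 bases in place of 1000 lay 21.5% for gene ends and 19.1% for intervals called in all 8 libraries, and 67.0% lay inside a gene of any type. The alternatives for the H3K4me1 pattern in Cpt2 KO alone (110 to 277 over the libraries left out) and for the PPARA list (5.92% with a −log10 q of 10 in the Cpt2 KO libraries, and 7.99% to 15.4% over the libraries left out) were chosen after seeing the data.

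All 13 alternatives of each limma comparison, which included quantile normalization, no centring, the smallest peak width as a covariate and leaving out each library (0 to 0), called 0 intervals at the sites, with lowest adjusted p-values from 0.0545 to 0.999. With the replicate number as a replicate block, 0 intervals were called in each comparison; deviations of same-numbered libraries correlated from −0.49 to 0.10, so the numbers were not taken as pairs. The search for motifs in whole intervals was not run. With 2 livers a genotype and no read totals, a missing call is not a measured absence.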
